A study of Homo sapiens with 12 samples.

Results

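The machinery that copies DNA was followed through its transcripts in NB-1, an established human neuroblastoma cell line that carries amplified MYCN and ALK. The 49 genes were chosen by name: they encode the factors that mark and license origins, the replicative helicase and its activators, the polymerases, the sliding clamp and its loader, and the proteins that guard the fork. All 49 were among the 58051 genes of the deposited table, and all 49 were among the 17774 genes with enough counts to be tested. Cells were treated for 48 h in 4 groups of 3 biological replicates each. They received 0.5 µM BEZ-235 (dactolisib), which blocks the kinases PI3K and mTOR, 0.5 µM SAHA (vorinostat), which blocks histone deacetylases, both drugs at these doses, or DMSO, the solvent, alone. NB-1 is 1 line, and nothing in the labels says what samples with the same replicate number share, so the p-values measure only the spread between these cultures.

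Replication starts at origins, where the origin recognition complex (ORC) and CDC6 load the MCM2-7 helicase core with the help of CDT1. The kinase CDC7 with its activator DBF4, and the factor TICRR, then let CDC45 and the GINS complex join MCM2-7, and the active helicase unwinds DNA ahead of the polymerases. In proliferating cells many of these genes are transcribed around the entry into S phase, and E2F transcription factors bind the promoters of many of them. MYCN-amplified neuroblastoma is a fast proliferating tumour in which such genes are usually abundant.

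The 12 libraries, made from polyadenylated RNA with a stranded kit, held 17662944 to 79543539 counts with a median of 20407979, and SAHA replicate 2 was the deepest. The lowest value of any of the 49 genes in a library was 6.55 counts, for CLSPN, and 48 of them had at least 10 counts in every library. Levels are given as CPM, the counts of a gene relative to the scaled total of its library, and differences on the log2 scale as value ± SE (n = 3 per group). Adjusted p-values are 2-sided values of the edgeR quasi-likelihood test after Benjamini-Hochberg adjustment over all genes tested, and a gene is said to rise or fall where this is under 0.05. The libraries treated with both drugs stood apart in how their counts followed the GC content of transcripts. Counts rose with GC by 0.2076 to 0.4703 (log2 per 10 percentage points) in these 3 libraries, whereas the slope lay between -0.226 and -0.001841 in the other 9. Because of this, calls among the 49 genes that involve both drugs are also counted after a correction for GC content and transcript length. Corrected differences are given for some genes, and not every gene whose call changed is named. All 11 adrenergic neuroblastoma markers were tested, with a summed level of 1520 to 1740 CPM with BEZ-235, 1620 to 1810 CPM with SAHA, 1890 to 2400 CPM with both drugs and 1740 to 2010 CPM with DMSO. No leukocyte marker had enough counts to be tested, and the endothelial and Schwann cell lists stayed at or below 9.1 CPM in sum. The 7 fibroblast markers, led by THY1 with BEZ-235 and by LUM in the other groups, summed to 36.5 to 41.0 CPM with BEZ-235, 411 to 456 CPM with SAHA, 151 to 180 CPM with both drugs and 104 to 115 CPM with DMSO, and the part of these shifts in the results below was not tested. In bulk RNA, fewer cells in S phase and less RNA per cell cannot be told apart.

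With BEZ-235 the replication genes fell almost without exception. Of the 49 genes, 46 were lower than with DMSO and 0 were higher, where 25.4% of all tested genes were lower and 25.5% were higher. DESeq2 and an unadjusted p under 0.05 likewise gave 0 higher. Their median log2 fold change was -1.72, beside 0.0167 over all tested genes, and 34 genes fell at least 2-fold, 18 at least 4-fold and 7 at least 8-fold. The shares of all tested genes past these folds were not counted, and the 25.4% above rests on the adjusted p alone. The 3 genes that did not pass were ORC3, ORC4 and ORC5, all subunits of the origin recognition complex. After the GC and length correction, under which 26.4% of all tested genes were lower and 28.8% higher, the 46 calls stood and ORC3 was higher (0.24 ± 0.07). All 46 calls also held in each of the 12 fits that left out a library.

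With SAHA the same genes moved little. Of the 49, 33 were lower and 2 were higher, beside 20.9% lower and 22.2% higher among all tested genes, and the median log2 fold change was -0.32, beside -0.00541 over all tested genes. No member fell 2-fold, and the lowest was TIMELESS at -0.91. The 2 that rose were RPA3 and RFC1. Of these 35 calls, 23 held in each of the 12 fits that left out a library. The number of lower genes was 23 without SAHA replicate 1 and 27 with the replicate number as a block. The GC and length correction kept all 35 calls and added MCM6, GINS2 and RPA2 to the lower ones, with 23.4% of all tested genes lower and 25.0% higher under it.

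With both drugs 48 of the 49 genes were lower than with DMSO and 0 were higher, with 0 higher also by DESeq2 and at an unadjusted p under 0.05, while 31.2% of all tested genes were lower and 33.2% were higher. The median was -2.01, beside 0.0336 over all tested genes. CDT1 was the gene that did not pass (-0.24 ± 0.18, adjusted p = 0.253). After the GC and length correction 47 were lower and 0 higher, beside 29.4% and 35.4% of all tested genes: the calls of ORC4 (0.11) and RFC1 (-0.04) were lost and CDT1 was lower (-0.66). The 3 comparisons against DMSO share the DMSO libraries, so their values are set side by side and not read as independent. The plot of fold changes by complex shows the 3 treatments for every gene.

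**Figure D1:**
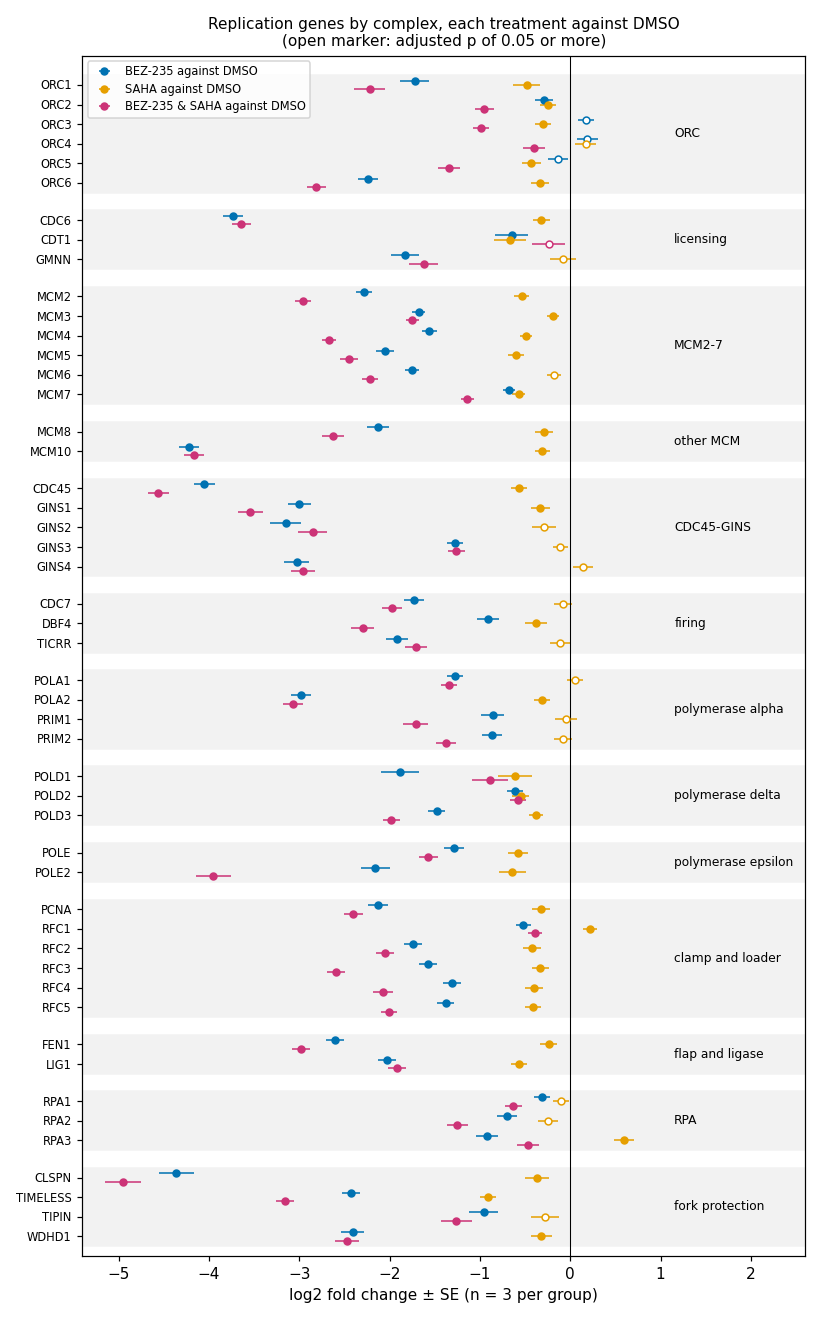
Log2 fold change against DMSO (± SE, n = 3 per group) of the 49 replication genes, grouped by complex, with BEZ-235, SAHA and both drugs. Values with BEZ-235 span -4.36 to 0.19 and values with SAHA span -0.91 to 0.59, and ORC3, ORC4 and ORC5 are the open BEZ-235 markers near 0.

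The origin recognition complex split into subunits that fell with BEZ-235 and subunits that did not. ORC1, the subunit that in human cells comes and goes with the cell cycle, averaged 3.71 ± 0.321 CPM with BEZ-235, 8.68 ± 1.02 with SAHA, 2.63 ± 0.711 with both drugs and 12.2 ± 0.377 with DMSO (SD, n = 3). Its log2 fold change with BEZ-235 was -1.72 ± 0.16 (adjusted p = 2.67e-07), and ORC6, the smallest subunit, was at -2.24 ± 0.11 (adjusted p = 7.48e-11). ORC2, a core subunit, fell by 0.29 on the log2 scale (± 0.10, adjusted p = 0.0167).

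ORC3, another core subunit, stood at 49.7, 53.5 and 57.6 CPM with BEZ-235, 36.0, 38.2 and 41.2 CPM with SAHA, 26.3, 23.1 and 22.5 CPM with both drugs and 46.4, 49.4 and 46.8 CPM with DMSO. ORC4, an ATP-binding subunit, stood at 74.5, 87.0 and 88.7 CPM with BEZ-235, 73.5, 79.3 and 93.4 CPM with SAHA, 62.9, 58.7 and 43.8 CPM with both drugs and 72.4, 72.2 and 74.1 CPM with DMSO. ORC5, also ATP-binding, stood at 17.8, 21.2 and 22.2 CPM with BEZ-235, 16.0, 15.9 and 18.1 CPM with SAHA, 10.0, 7.61 and 8.88 CPM with both drugs and 22.9, 23.7 and 20.8 CPM with DMSO. For ORC3 and ORC4 the 3 BEZ-235 libraries lay just above the DMSO libraries, for ORC5 the groups overlapped, and for all 3 genes the libraries with both drugs were the lowest. With BEZ-235 the changes were 0.17 ± 0.09 for ORC3 (adjusted p = 0.106), 0.19 ± 0.12 for ORC4 (adjusted p = 0.187) and -0.14 ± 0.11 for ORC5 (adjusted p = 0.336). With SAHA, ORC3 (-0.30 ± 0.09) and ORC5 (-0.43 ± 0.11) were lower and ORC4 did not pass (0.17 ± 0.12, adjusted p = 0.26). With both drugs all 6 subunits were lower, with a median of -1.16 that was -0.68 after the GC and length correction. ORC4 has the lowest GC content of the 49 transcripts, 37.7%, and its fall with both drugs (-0.40 ± 0.12, adjusted p = 0.0076) was 0.11 ± 0.09 (adjusted p = 0.276) after that correction. Reads of ORC4 share their locus with ACVR2A and MBD5 on the opposite strand, and the strand setting of the counting is not given in the sources used here.

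**Figure D2:**
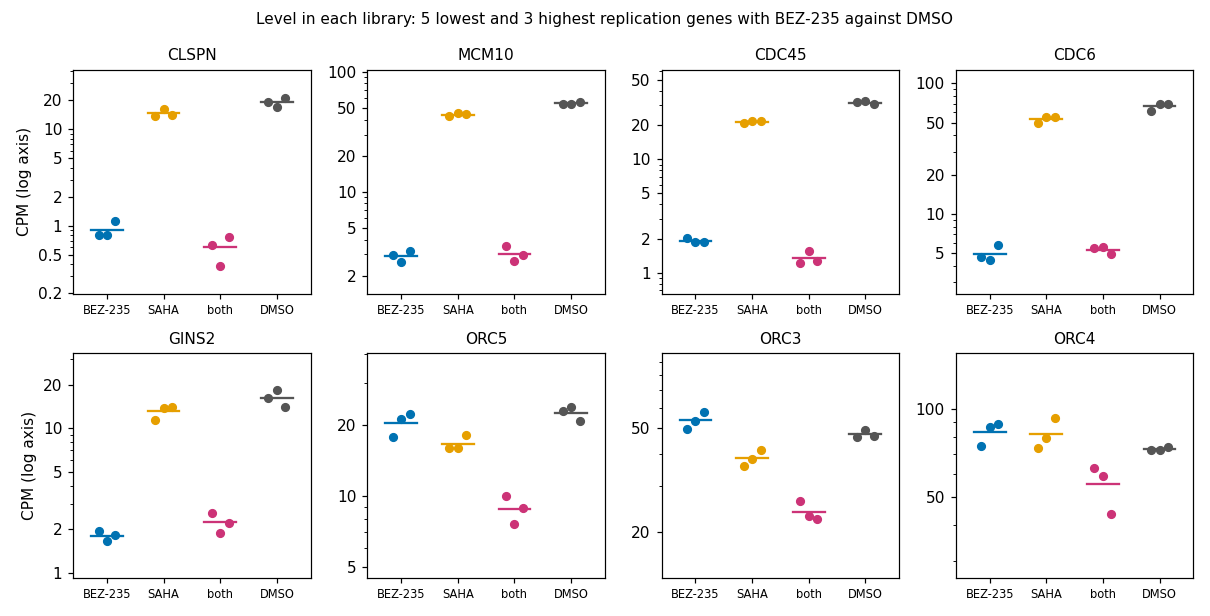
Level (CPM, log axis) in each of the 12 libraries for the 5 genes with the lowest and the 3 with the highest log2 fold change with BEZ-235 against DMSO; points are libraries and lines are group means. CLSPN lies between 0.802 and 1.12 CPM with BEZ-235 and between 16.8 and 21.1 CPM with DMSO, while ORC3 and ORC4 lie just above their DMSO levels with BEZ-235 and lowest with both drugs.

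Among the licensing factors, CDC6, the ATPase that helps ORC load MCM2-7, showed the largest fall with BEZ-235. It stood at 4.72, 4.49 and 5.76 CPM with BEZ-235, 49.4, 55.8 and 54.9 CPM with SAHA, 5.53, 5.57 and 4.96 CPM with both drugs and 61.7, 69.5 and 69.2 CPM with DMSO. The groups with BEZ-235 were thus an order of magnitude below the other 2, at 13.3-fold below DMSO (-3.73 ± 0.11, adjusted p = 4.14e-13) and, with both drugs, 12.5-fold below it (-3.64 ± 0.11). CDT1, the loading factor that delivers MCM2-7, stood at 6.16, 6.85 and 5.81 CPM with BEZ-235, 5.66, 6.11 and 6.73 CPM with SAHA, 6.91, 6.73 and 11.2 CPM with both drugs and 10.7, 10.6 and 8.27 CPM with DMSO. Each drug alone lowered it by about the same amount, -0.65 ± 0.18 with BEZ-235 (adjusted p = 0.00699) and -0.67 ± 0.18 with SAHA (adjusted p = 0.00581). These were -0.38 ± 0.15 (adjusted p = 0.0364) and -0.35 ± 0.14 (adjusted p = 0.0494) after the GC and length correction, and -0.66 ± 0.14 with both drugs. With both drugs 2 libraries lay below all DMSO libraries and replicate 3 lay above them, at 11.2 CPM. Without that library CDT1 was lower with both drugs than with DMSO (-0.54, adjusted p = 0.00697). GMNN, which encodes geminin, the inhibitor of CDT1, averaged 6.42 ± 0.732 CPM with BEZ-235, 21.5 ± 1.56 with SAHA, 7.43 ± 1.99 with both drugs and 22.8 ± 2.89 with DMSO (SD, n = 3). It fell 3.55-fold with BEZ-235 (-1.83 ± 0.16) and 3.08-fold with both drugs (-1.62 ± 0.16), and with SAHA it did not pass (-0.08 ± 0.14, adjusted p = 0.677).

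All 6 subunits of MCM2-7, the ring that forms the core of the helicase, fell with BEZ-235, but not to the same degree. MCM2 (-2.28 ± 0.09) and MCM5 (-2.05 ± 0.10) fell most, MCM3 (-1.68 ± 0.07), MCM4 (-1.56 ± 0.08) and MCM6 (-1.75 ± 0.08) less, and MCM7 least (-0.68 ± 0.07, adjusted p = 6.54e-07). MCM5 stood at 24.9, 23.6 and 21.3 CPM with BEZ-235, 60.4, 67.6 and 62.5 CPM with SAHA, 16.4, 16.9 and 19.3 CPM with both drugs and 95.4, 105 and 87.7 CPM with DMSO. MCM7 stood at 184, 173 and 167 CPM with BEZ-235, 182, 197 and 186 CPM with SAHA, 126, 127 and 128 CPM with both drugs and 277, 297 and 267 CPM with DMSO. The 4 groups of MCM5 did not overlap and its SAHA libraries lay nearer to DMSO than to BEZ-235, whereas the single-drug libraries of MCM7 overlapped. With SAHA 5 of the 6 were lower, MCM5 (-0.60 ± 0.09, adjusted p = 5.77e-05) and MCM7 (-0.57 ± 0.07) most, and MCM6 did not pass (-0.18 ± 0.08, adjusted p = 0.0901). The MCM3 call (-0.19 ± 0.07, adjusted p = 0.037) ended in 6 of the 12 fits that left out a library (adjusted p = 0.0503 to 0.132). With both drugs all 6 were lower, with a median of -2.34 and MCM2 lowest at -2.96 ± 0.09.

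MCM8, a helicase subunit that acts with MCM9 in recombination, and MCM10, which activates the loaded helicase, carry the family name without belonging to the ring. MCM10 stood at 2.95, 2.62 and 3.18 CPM with BEZ-235, 42.6, 45.2 and 44.2 CPM with SAHA, 3.51, 2.65 and 2.96 CPM with both drugs and 53.9, 54.0 and 55.9 CPM with DMSO. It was 18.6-fold below DMSO with BEZ-235 (-4.22 ± 0.11, adjusted p = 3.6e-13) and 17.9-fold below it with both drugs (-4.17 ± 0.11), with SAHA at -0.31 ± 0.08. MCM8 fell 4.37-fold with BEZ-235 (-2.13 ± 0.12).

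CDC45 and the 4 GINS subunits, which complete the active helicase around MCM2-7, had a median of -3.03 with BEZ-235, beside -1.72 for MCM2-7. CDC45 stood at 2.04, 1.87 and 1.85 CPM with BEZ-235, 20.8, 21.9 and 21.7 CPM with SAHA, 1.22, 1.54 and 1.27 CPM with both drugs and 31.9, 32.9 and 30.6 CPM with DMSO. GINS2 stood at 1.93, 1.66 and 1.81 CPM with BEZ-235, 11.3, 13.8 and 14.0 CPM with SAHA, 2.6, 1.88 and 2.19 CPM with both drugs and 16.1, 18.2 and 13.9 CPM with DMSO. CDC45 fell 16.6-fold with BEZ-235 (-4.05 ± 0.12, adjusted p = 3.6e-13) and 23.6-fold with both drugs (-4.56 ± 0.12), and its SAHA libraries lay between these and DMSO (-0.57 ± 0.09, adjusted p = 9.76e-05). GINS2 fell 8.91-fold with BEZ-235 (-3.15 ± 0.17), GINS1 8.01-fold (-3.0 ± 0.13) and GINS4 8.18-fold (-3.03 ± 0.14), whereas GINS3 fell 2.42-fold (-1.28 ± 0.09). With SAHA, GINS1 was lower (-0.33 ± 0.11), a call lost without DMSO replicate 1 or 3 or SAHA replicate 1 or 2 (adjusted p = 0.0672 to 0.121), and GINS2, GINS3 and GINS4 did not pass. GINS2 overlaps GSE1 on the opposite strand, which had 1840% of its counts.

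The kinase and the firing factor fell by different amounts. With BEZ-235, CDC7 was at -1.73 ± 0.11, TICRR at -1.92 ± 0.12 and DBF4, a regulatory subunit that activates CDC7, at -0.91 ± 0.12 (adjusted p = 1e-05). DBF4 stood at 22.4, 24.4 and 26.7 CPM with BEZ-235, 31.6, 34.2 and 40.2 CPM with SAHA, 11.4, 8.77 and 7.88 CPM with both drugs and 46.2, 48.3 and 43.6 CPM with DMSO. The 4 groups of DBF4 did not overlap, and with both drugs it fell 4.94-fold (-2.30 ± 0.13, adjusted p = 2.41e-10). With SAHA DBF4 was lower (-0.38 ± 0.12, adjusted p = 0.0141), while CDC7 and TICRR did not pass. The DBF4 call was lost without DMSO replicate 2 or SAHA replicate 1 or 2 (adjusted p = 0.0516 to 0.0694). DBF4 overlaps SLC25A40 and TICRR overlaps KIF7 on the opposite strand, with 62.8% and 62.7% of their counts.

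The polymerases that start and extend new strands also fell with BEZ-235. In the polymerase alpha-primase complex, which lays down primers, POLA2 fell most (-2.98 ± 0.11), followed by the catalytic subunit POLA1 (-1.28 ± 0.09) and the primase subunits PRIM1 (-0.86 ± 0.13) and PRIM2 (-0.87 ± 0.11). With SAHA, POLA2 was lower (-0.31 ± 0.09) and the other 3 did not pass. PRIM1 shares its strand and part of its locus with NACA, which had 4510% of its counts, so a share of its counts is uncertain.

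Polymerase delta extends the lagging strand, and all 3 of its genes among the 49 fell with BEZ-235. POLD1, its catalytic subunit, stood at 6.27, 4.44 and 3.57 CPM with BEZ-235, 12.2, 11.1 and 11.3 CPM with SAHA, 6.64, 10.3 and 11.4 CPM with both drugs and 17.5, 20.6 and 14.7 CPM with DMSO. POLD2, an accessory subunit, stood at 57.6, 57.6 and 48.9 CPM with BEZ-235, 54.8, 57.8 and 58.0 CPM with SAHA, 50.8, 54.7 and 61.7 CPM with both drugs and 86.9, 87.9 and 75.7 CPM with DMSO. POLD1 was lowest with BEZ-235 and higher again with both drugs, whereas the 3 treated groups of POLD2 overlapped below DMSO. Against DMSO, POLD1 was at -1.89 ± 0.21 with BEZ-235, -0.61 ± 0.19 with SAHA (adjusted p = 0.0169) and -0.89 ± 0.20 with both drugs (adjusted p = 0.00101). Leaving out DMSO replicate 2 (-0.48, adjusted p = 0.0864) or SAHA replicate 2 (-0.59, adjusted p = 0.0615) ended the SAHA call of POLD1. POLD1 has the highest GC content of the 49, 65.0%, and its change with both drugs was -1.33 ± 0.11 after the GC and length correction. POLD2 was at -0.61 ± 0.09 with BEZ-235, -0.55 ± 0.09 with SAHA and -0.58 ± 0.09 with both drugs. POLD3 was at -1.48 ± 0.09 with BEZ-235 and -1.98 ± 0.09 with both drugs. It shares its strand and part of its locus with AP001372.2, which had 19.6% of its counts. POLD4, a small subunit outside the 49, did not pass with BEZ-235 and is given with the other lists below.

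In polymerase epsilon, which extends the leading strand, the small subunit POLE2 fell more than the catalytic subunit POLE. POLE2 stood at 4.5, 5.24 and 4.69 CPM with BEZ-235, 12.5, 13.9 and 14.9 CPM with SAHA, 1.97, 1.43 and 0.819 CPM with both drugs and 21.0, 21.2 and 22.2 CPM with DMSO. Its 4 groups did not overlap, and the order was both drugs, BEZ-235, SAHA and DMSO, low to high. It fell 4.46-fold with BEZ-235 (-2.16 ± 0.16), 1.56-fold with SAHA (-0.64 ± 0.15, adjusted p = 0.00198) and 15.5-fold with both drugs (-3.95 ± 0.19, adjusted p = 3.92e-11). POLE was at -1.29 ± 0.11 with BEZ-235, -0.58 ± 0.11 with SAHA and -1.57 ± 0.11 with both drugs.

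PCNA, the sliding clamp that holds the polymerases on DNA, averaged 36.7 ± 1.69 CPM with BEZ-235, 129 ± 15.1 with SAHA, 30.4 ± 4.08 with both drugs and 160 ± 16.7 with DMSO (SD, n = 3). It fell 4.37-fold with BEZ-235 (-2.13 ± 0.11) and 5.27-fold with both drugs (-2.40 ± 0.11). With SAHA it was lower (-0.32 ± 0.10, adjusted p = 0.02), a call that ended when DMSO replicate 2 or SAHA replicate 1 was left out (adjusted p = 0.111 to 0.112). Of the 5 subunits of RFC, the complex that opens and loads the clamp, RFC2 (-1.74 ± 0.10), RFC3 (-1.58 ± 0.10), RFC4 (-1.31 ± 0.10) and RFC5 (-1.38 ± 0.09) fell with BEZ-235. RFC4 overlaps EIF4A2 and RFC5 overlaps WSB2 on the opposite strand, with 1960% and 385% of their counts. RFC1, the large subunit, stood at 87.6, 87.7 and 93.8 CPM with BEZ-235, 148, 154 and 150 CPM with SAHA, 111, 91.6 and 92.8 CPM with both drugs and 127, 127 and 132 CPM with DMSO. Its SAHA libraries were the highest, and its BEZ-235 libraries lay lowest and overlapped those with both drugs. RFC1 was lower with BEZ-235 (-0.52 ± 0.08) and higher with SAHA (0.22 ± 0.08, adjusted p = 0.0279). The rise with SAHA did not hold when DMSO replicate 1 or 2 or SAHA replicate 2 or 3 was left out (adjusted p = 0.0551 to 0.0973). With both drugs RFC1 was lower (-0.39 ± 0.08, adjusted p = 0.000363), and this was -0.04 ± 0.06 (adjusted p = 0.565) after the GC and length correction.

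FEN1, the nuclease that trims flaps between Okazaki fragments, and LIG1, the ligase that seals them, fell 6.06-fold (-2.60 ± 0.10) and 4.07-fold (-2.03 ± 0.10) with BEZ-235. With SAHA, LIG1 was at -0.57 ± 0.09 and FEN1 at -0.24 ± 0.09 (adjusted p = 0.0341), and the FEN1 call ended when any of DMSO replicates 1 and 2 and SAHA replicates 1 and 2 was left out (adjusted p = 0.0604 to 0.143). FEN1 shares its strand and part of its locus with FADS2, which had 289% of its counts.

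The 3 subunits of RPA, which coats single-stranded DNA, moved least of the groups that fell as a whole with BEZ-235, with a median of -0.70. RPA1, the large subunit, was at -0.31 ± 0.09 (adjusted p = 0.00874) and RPA2 at -0.70 ± 0.11. RPA3, the smallest subunit, stood at 9.33, 11.2 and 10.6 CPM with BEZ-235, 26.1, 28.3 and 34.0 CPM with SAHA, 13.9, 13.7 and 14.7 CPM with both drugs and 18.1, 21.6 and 19.1 CPM with DMSO. The 4 groups did not overlap, with SAHA highest and BEZ-235 lowest. RPA3 fell with BEZ-235 (-0.92 ± 0.12), rose with SAHA (0.59 ± 0.11, adjusted p = 0.000413) and fell with both drugs (-0.47 ± 0.12, adjusted p = 0.00191). It overlaps UMAD1 on the opposite strand, which had 51.2% of its counts.

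The largest single fall of the 49 genes with BEZ-235 was that of CLSPN, which encodes claspin, the adaptor through which ATR activates the checkpoint kinase CHK1 at stalled forks. CLSPN (ENSG00000092853, hg38 chromosome 1, 35720218 to 35769967, minus strand) stood at 0.804, 0.802 and 1.12 CPM with BEZ-235, 13.8, 16.1 and 14.1 CPM with SAHA, 0.638, 0.386 and 0.774 CPM with both drugs and 19.0, 16.8 and 21.1 CPM with DMSO. It was 20.5-fold below DMSO with BEZ-235 (-4.36 ± 0.19, adjusted p = 1.71e-11) and 30.9-fold below it with both drugs (-4.95 ± 0.20, adjusted p = 5.23e-12), at levels where few reads remain. With SAHA it was at -0.37 ± 0.13 (adjusted p = 0.0359), a call that ended when any of DMSO replicates 1 and 3 and SAHA replicates 1 and 3 was left out (adjusted p = 0.0895 to 0.153).

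TIMELESS, which with TIPIN forms the fork protection complex, was the gene that SAHA lowered most. It stood at 35.8, 27.0 and 30.4 CPM with BEZ-235, 91.4, 92.7 and 82.4 CPM with SAHA, 20, 19.4 and 17 CPM with both drugs and 162, 169 and 171 CPM with DMSO. The 4 groups did not overlap. It fell 5.39-fold with BEZ-235 (-2.43 ± 0.10), 1.88-fold with SAHA (-0.91 ± 0.09, adjusted p = 9.31e-07) and 8.93-fold with both drugs (-3.16 ± 0.10). TIPIN was at -0.96 ± 0.16 with BEZ-235, and with SAHA it did not pass (-0.28 ± 0.15, adjusted p = 0.16). WDHD1, which ties the helicase to polymerase alpha, was at -2.41 ± 0.13 with BEZ-235.

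Promoter sequences were read from RefSeq (GRCh38.p14) to see what the genes share that their names do not give. For 43 of the 49 genes the table holds at least 1 window of 250 bases before to 50 bases after the start of the gene. A core E2F site (TTTCGCGC, TTTGGCGC, TTTCCCGC or TTTGCCGC, on either strand) was found in 22 of the 43, or 51.2%, and in 712 of 11120 tested genes with a window, or 6.40%. With only the 250 bases before the start these shares were 34.9% and 5.43%. CCAAT, the core of the NF-Y site, was found in 60.5% of the 43 and 43.1% of the tested genes, the E-box CACGTG, which MYC family proteins bind, in 18.6% and 12.5%, and TTTGAA, the core of the cell cycle homology region, in 2.33% and 13.6%. With BEZ-235, 21 of the 22 genes with an E2F match and 19 of the 21 without were lower, with medians of -1.79 and -1.38. A match is a run of letters and not a shown binding site, and these shares were not tested.

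Below are the windows, 250 bases before to 20 bases after the start and 5′ to 3′ on the strand of the gene, of the 2 genes that fell most with BEZ-235 (CLSPN and MCM10) and of the 2 nearest to no change (ORC5 and ORC3). MCM6, with 4 matches, was added after the matches were seen. Capitals mark the E2F matches. The positions are chr1:35769959-35770228 (minus strand) for CLSPN, chr10:13161308-13161577 (plus) for MCM10, chr7:104207994-104208263 (minus) for ORC5, chr6:87589885-87590154 (plus) for ORC3 and chr2:135876424-135876693 (minus) for MCM6.
CLSPN: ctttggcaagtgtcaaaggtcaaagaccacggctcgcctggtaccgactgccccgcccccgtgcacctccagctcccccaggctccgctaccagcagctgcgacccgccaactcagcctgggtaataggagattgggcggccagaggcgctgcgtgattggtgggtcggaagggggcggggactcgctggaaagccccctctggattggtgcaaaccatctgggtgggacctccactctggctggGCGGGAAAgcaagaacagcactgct
MCM10: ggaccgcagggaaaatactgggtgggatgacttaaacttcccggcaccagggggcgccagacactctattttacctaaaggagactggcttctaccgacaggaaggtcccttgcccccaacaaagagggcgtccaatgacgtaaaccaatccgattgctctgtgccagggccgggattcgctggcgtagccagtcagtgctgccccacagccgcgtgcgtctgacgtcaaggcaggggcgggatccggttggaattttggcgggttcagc
ORC5: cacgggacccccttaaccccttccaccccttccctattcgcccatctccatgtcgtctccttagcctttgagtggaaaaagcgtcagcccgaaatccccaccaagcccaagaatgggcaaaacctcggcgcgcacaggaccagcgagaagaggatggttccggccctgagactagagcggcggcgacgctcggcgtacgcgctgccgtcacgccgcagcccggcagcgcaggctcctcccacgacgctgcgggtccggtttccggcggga
ORC3: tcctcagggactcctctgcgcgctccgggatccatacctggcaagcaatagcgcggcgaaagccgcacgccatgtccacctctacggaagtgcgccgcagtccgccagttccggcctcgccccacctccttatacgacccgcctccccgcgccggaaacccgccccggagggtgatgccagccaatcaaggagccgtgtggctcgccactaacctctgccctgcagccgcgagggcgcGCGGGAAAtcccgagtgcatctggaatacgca
MCM6: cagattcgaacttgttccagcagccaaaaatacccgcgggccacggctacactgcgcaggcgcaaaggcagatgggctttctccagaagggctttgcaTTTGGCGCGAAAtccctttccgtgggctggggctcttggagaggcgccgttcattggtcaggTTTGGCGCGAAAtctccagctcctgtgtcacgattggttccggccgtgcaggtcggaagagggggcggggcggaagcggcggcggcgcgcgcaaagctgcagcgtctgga
CLSPN, at -4.36, and ORC3, at 0.17, each hold 1 match, TTTCCCGC on the other strand, at -5 and -12 from the start. MCM10, at -4.22, and ORC5, at -0.14, hold none of the exact sequences searched for, and other forms of the E2F site were not searched. In MCM6 the 4 matches are 2 runs in which TTTGGCGC on the strand of the gene overlaps TTTCGCGC on the other strand.

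The comparison of BEZ-235 with SAHA asked how far the single drugs differ. Of the 49 genes, 41 were lower with BEZ-235 than with SAHA and 2 were higher, a median of -1.33. Of all tested genes 59.7% differed in either direction, 29.8% being higher and the rest of the 59.7% lower, with a median of 0.0192. CLSPN (-3.99 ± 0.19), MCM10 (-3.91 ± 0.11) and CDC45 (-3.48 ± 0.12) were furthest apart. ORC3 was higher with BEZ-235 than with SAHA (0.48 ± 0.09, adjusted p = 0.000153), as was ORC5 (0.30 ± 0.11, adjusted p = 0.0344). The ORC5 call was lost without DMSO replicate 1, BEZ-235 replicate 2 or 3, or SAHA replicate 1 or 2 (adjusted p = 0.0542 to 0.173). Of the 6 genes that did not pass, MCM7 was at -0.11 ± 0.07 (adjusted p = 0.195), an interval of -0.25 to 0.03 at 2 SE, and POLD2 at -0.06 ± 0.09, an interval of -0.24 to 0.13. The intervals of ORC2 (-0.23 to 0.15), ORC4 (-0.21 to 0.26) and CDT1 (-0.35 to 0.38) also held 0, whereas that of RPA1 (-0.39 to -0.03) did not, with an adjusted p of 0.0537.

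The next question was what SAHA adds to BEZ-235. With both drugs 29 of the 49 genes fell below BEZ-235 given alone and 2 were above it, beside 28.5% lower and 29.5% higher among all tested genes, with a median of -0.41, beside 0.012 over all tested genes. After the GC and length correction 25 were lower and 8 were higher, where 25.9% of all tested genes were lower and 54.8% differed in either direction, with a median of -0.28 for the 49. Of the 31 calls, 26 still passed in the same direction after the correction, and 7 genes passed only after it. Not all of the genes whose call changed are named here. All 6 ORC subunits were among the 29, led by ORC5 (-1.21 ± 0.12) and ORC3 (-1.16 ± 0.09). Their median was -0.62, and -0.55 after the correction, which moved ORC2 from -0.65 to -0.21 and ORC1 from -0.50 to -0.56. ORC1 (-0.50 ± 0.18, adjusted p = 0.0274) did not hold without BEZ-235 replicate 1 or combination replicate 2 or 3, and ORC4 was the subunit whose call the correction removed (-0.05 ± 0.09, adjusted p = 0.665). POLE2 (-1.79 ± 0.21, adjusted p = 2.32e-06) and DBF4 (-1.40 ± 0.13, adjusted p = 2.37e-07) were the lowest, at -1.56 ± 0.18 and -0.95 ± 0.11 after the correction.

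In the ring, the addition of SAHA lowered 5 of the 6 subunits. They were MCM4 (-1.11 ± 0.08), MCM2 (-0.67 ± 0.09), MCM6 (-0.47 ± 0.09), MCM7 (-0.46 ± 0.07) and MCM5 (-0.41 ± 0.10), and they also passed after the correction, at -1.10, -1.04, -0.20, -0.80 and -0.72. MCM3 did not pass (-0.06 ± 0.07, adjusted p = 0.48). Of the 4 genes lowest with BEZ-235 against DMSO, MCM10 (0.05 ± 0.14), CDC6 (0.09 ± 0.13) and CLSPN (-0.59 ± 0.28, adjusted p = 0.0824) did not pass. The BEZ-235 libraries that placed these genes lowest also enter this comparison. CDC45 passed (-0.51 ± 0.16, adjusted p = 0.0262), and its call was lost without BEZ-235 replicate 1 or combination replicate 1 or 3 (adjusted p = 0.065 to 0.0866). As measured, the addition of SAHA raised POLD1 (1.01 ± 0.22, adjusted p = 0.000966) and RPA3 (0.44 ± 0.12, adjusted p = 0.00494). After the correction they were at 0.32 ± 0.13 and 0.55 ± 0.11, among 8 genes that were then higher. CDT1, the third highest as measured, did not pass (0.41 ± 0.18, adjusted p = 0.0662), and was at -0.28 ± 0.15 after the correction. It passed without combination replicate 1 or 2 (0.53 in both, adjusted p = 0.0293 and 0.0295). PRIM1 was lower (-0.85 ± 0.14), at -0.42 ± 0.11 after the correction.

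Set the other way, BEZ-235 added to SAHA lowered nearly the whole set. With both drugs 46 genes were lower and 1 was higher than with SAHA alone, beside 28.9% lower and 29.9% higher among all tested genes, with a median of -1.66. After the GC and length correction 46 were lower and 0 higher, beside 23.6% and 27.7% of all tested genes. The calls of ORC3 and ORC4 did not pass there, at -0.14 ± 0.07 (adjusted p = 0.089) and an adjusted p of 0.991. CLSPN (-4.58 ± 0.20), CDC45 (-4.0 ± 0.12) and MCM10 (-3.86 ± 0.11) were lowest. CDT1 was the gene that was higher (0.43 ± 0.18, adjusted p = 0.0485), but it was -0.31 ± 0.14 (adjusted p = 0.078) after the GC and length correction. Its call was also lost in 10 of the 12 fits that left out a library, with an adjusted p of 0.512 without combination replicate 3. POLD2 (-0.03 ± 0.09, adjusted p = 0.804) and POLD1 (-0.28 ± 0.20, adjusted p = 0.241) did not pass, and both were lower after the correction (-0.44 ± 0.06 and -1.03 ± 0.11).

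Whether SAHA acts differently in the presence of BEZ-235 was tested as the interaction: the change from adding SAHA to BEZ-235, less the change from adding it to DMSO. It passed for 15 of the 49 genes, 10 negative and 5 positive, beside 19.6% negative and 18.9% positive among all tested genes, so the negative share was near that of all genes and the positive share was below it. After the GC and length correction 6 were negative and 7 positive, beside 8.71% and 8.86% of all tested genes. Of the 15 calls, 6 still passed in the same direction, and 7 genes that are not named here passed only after the correction. The largest negative values were those of POLE2 (-1.15 ± 0.26, adjusted p = 0.00258), DBF4 (-1.02 ± 0.18, adjusted p = 0.000499) and ORC3 (-0.86 ± 0.12, adjusted p = 0.000185). They stayed past the threshold after the correction, at -0.91 ± 0.22, -0.56 ± 0.14 and -0.39 ± 0.10, as did MCM4 (-0.62 ± 0.11, then -0.57 ± 0.10). Among the positive values, POLD1 (1.62 ± 0.29, then 0.61 ± 0.17) and CDC6 (0.41 ± 0.16, then 0.59 ± 0.15) stayed, while CDT1 (1.08 ± 0.26, then 0.07 ± 0.21) did not. The CDC6 interaction was lost in fits without a library, with adjusted p-values up to 0.141. The 10 negative genes have transcripts of 37.7 to 48.5% GC and the 5 positive ones transcripts of 45.5 to 65.0% GC, the property in which the libraries with both drugs stood apart.

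**Figure D3:**
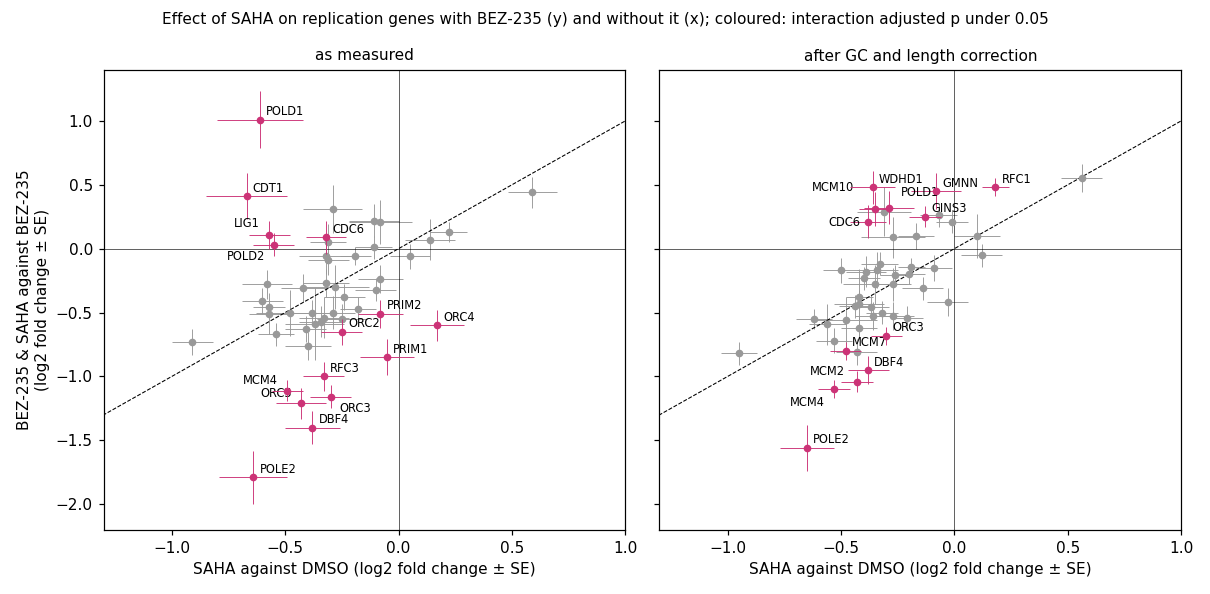
Log2 fold change (± SE) with both drugs against BEZ-235 (vertical) over that with SAHA against DMSO (horizontal) for the 49 genes, as measured (left) and after the GC and length correction (right); the dashed line marks equal effects and coloured genes have an interaction adjusted p under 0.05. POLE2, DBF4, ORC3 and MCM4 lie below the line in both panels, whereas CDT1 moves to it, with an interaction of 1.08 as measured and 0.07 after the correction.

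Levels per length, in CPM per kilobase of exon, show how the balance of subunits differed between groups. Within ORC, ORC3 was the highest and ORC1 the lowest subunit in all 4 groups, and the ratio between them was 12.4 with BEZ-235, 3.78 with SAHA, 7.79 with both drugs and 3.34 with DMSO. With the length of the longest transcript in place of all exons, ORC1 was still the lowest but ORC6 was the highest with SAHA (16.4 CPM per kilobase) and with DMSO (20.8). The highest over the lowest was then 18.2 with BEZ-235, 5.96 with SAHA, 11.5 with both drugs and 5.39 with DMSO. In MCM2-7 the highest subunit over the lowest was 12.5-fold with BEZ-235, 6.90-fold with SAHA, 12.1-fold with both drugs and 5.21-fold with DMSO. MCM5 was the lowest in each group, and the highest was MCM7 in the groups with BEZ-235 (39.9 CPM per kilobase alone and 28.9 with SAHA) and MCM3 in those without it (59.7 with SAHA and 68.3 with DMSO). With the length of the longest transcript MCM7 (90.9) exceeded MCM3 (77.7) with DMSO too, so the top subunit there depends on the length used. In the CDC45-GINS group GINS3 exceeded GINS4 16.4-fold with BEZ-235, 4.07-fold with SAHA, 15.7-fold with both drugs and 4.84-fold with DMSO. These ratios describe transcripts, they depend on the exon length assigned to each gene, and they were not tested.

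**Figure D4:**
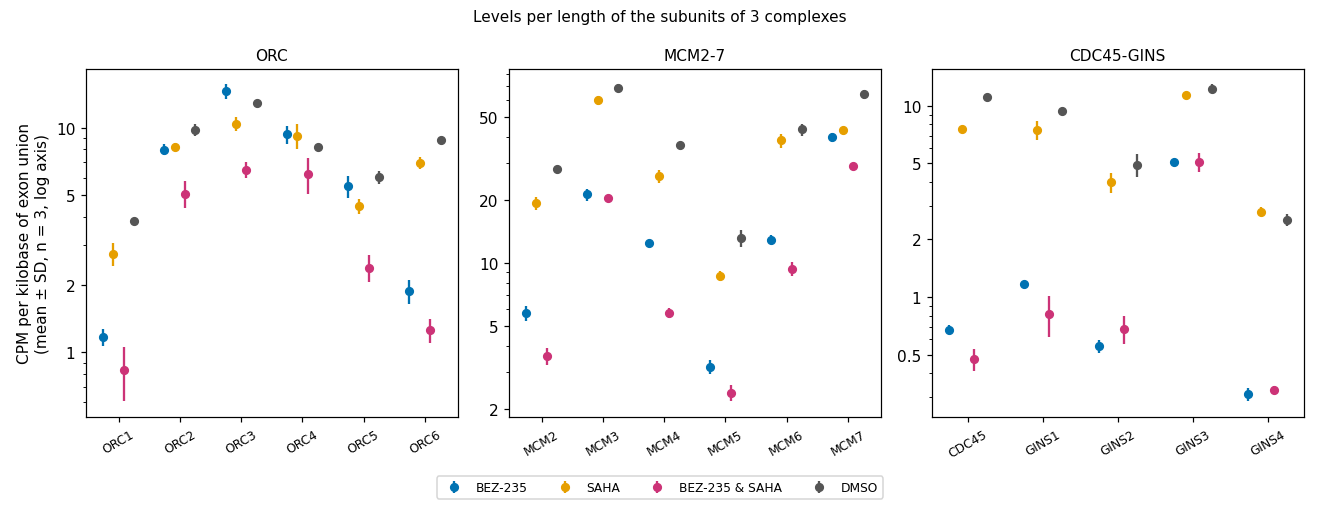
Mean level per kilobase of exon (CPM per kilobase, ± SD, n = 3, log axis) of the subunits of ORC, MCM2-7 and CDC45-GINS with BEZ-235, SAHA, both drugs and DMSO. Subunits lie closer together with DMSO, 3.86 to 12.9 in ORC, than with BEZ-235, 1.17 to 14.5.

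Most other genes of DNA synthesis, taken from lists outside the 49, were also lower with BEZ-235, and the counts below stand beside 25.4% lower and 25.5% higher among all tested genes with BEZ-235, 20.9% and 22.2% with SAHA, and 31.2% and 33.2% with both drugs. Of 25 other origin and fork factors, 20 were lower and 0 higher with BEZ-235, among them DTL (-3.36 ± 0.11), the substrate receptor that targets CDT1 for destruction, and the polymerase POLQ (-2.98 ± 0.14). The 5 that did not pass included POLD4 (-0.18 ± 0.31), a small subunit of polymerase delta, and the helicase subunit MCM9 (-0.10 ± 0.13). With SAHA 14 were lower and 1 was higher, TOP2A (0.64 ± 0.10), and with both drugs 21 were lower and 1 was higher, POLD4 (1.84 ± 0.28). All 10 chromatin assembly genes were lower with BEZ-235, led by UHRF1 (-4.21 ± 0.14), which helps to copy DNA methylation, and ASF1B (-3.47 ± 0.14), a histone chaperone. With SAHA 5 of the 10 were lower and 0 higher, led by TONSL (-1.14 ± 0.12), and with both drugs all 10 were lower.

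Of 9 genes of deoxynucleotide supply, 8 were lower with BEZ-235, led by RRM2 (-3.90 ± 0.13), a subunit of ribonucleotide reductase, TK1 (-4.01 ± 0.14), a thymidine kinase, and TYMS (-2.89 ± 0.11), which makes thymidylate. With SAHA 4 of the 9 were lower and 2 were higher, RRM2B (0.61 ± 0.10) and SAMHD1 (0.43 ± 0.07), and with both drugs 7 were lower and 1 was higher, SAMHD1 (0.41 ± 0.07). SAMHD1 breaks down deoxynucleotides and RRM2B is the second small subunit of ribonucleotide reductase.

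Of 11 fork checkpoint genes, 5 were lower with BEZ-235 and 1, RAD17 (0.30 ± 0.10), was higher, with a median of -0.31. With SAHA 6 were lower and 2 were higher, SMARCAL1 (0.37 ± 0.08) and ETAA1 (0.38 ± 0.12), and with both drugs 9 were lower and 1 was higher, SMARCAL1 (0.24 ± 0.08). CHEK1, the kinase that claspin helps to activate, was at -1.07 ± 0.09 with BEZ-235, -0.50 ± 0.09 with SAHA and -2.0 ± 0.10 with both drugs. Of 20 genes of the E2F and G1/S switch, 15 were lower and 1 was higher with BEZ-235 (median -0.73), 7 were lower and 4 higher with SAHA (median -0.19), and 18 were lower and 1 higher with both drugs (median -0.82). E2F1 (-3.32 ± 0.12), E2F2 (-3.59 ± 0.14) and CCNE2 (-3.35 ± 0.14), which encodes cyclin E2, fell with BEZ-235, and CDKN1B, which encodes the inhibitor p27, rose (0.70 ± 0.10, adjusted p = 3.56e-05). CDKN1B was also higher with SAHA (0.32 ± 0.10) and with both drugs (0.58 ± 0.10). Counts and values of all these lists are given without the GC and length correction. With both drugs against DMSO it moved SMARCAL1 to 0.17, CHEK1 to -1.6 and SAMHD1 to 0.54.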

How the data were processed

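Polyadenylated RNA of 12 NB-1 cultures was sequenced. Per the submitters' processing notes reads were processed with STAR and RSEM on build hg38, with versions, annotation and strand setting not given in the sources used here. Per gene and library the authors deposited expected counts, which RSEM estimates and which are not scaled for depth or length. They were rounded to whole counts, and 19 of the 49 genes had values that were not whole in some library. GENCODE release 29 supplied names, coordinates, length and GC content for 57447 of 58051 identifiers.

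All 12 libraries were fitted in 1 model of 4 group means (8 residual degrees of freedom) with edgeR 4.0.16 (filterByExpr, TMM factors 0.9812 to 1.028, robust quasi-likelihood test) under R 4.3.3. Genes were called at an adjusted p under 0.05 over the 17774 tested, and each SE belongs to a log2 difference. The biological coefficient of variation was 10.6%, which limits precision besides depth. The correction for GC content and length used offsets from a spline (5 degrees of freedom) per library. The code was tested on simulated data.

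The 49 genes, the other lists and the tests were chosen with earlier results of these data known. Levels per library are given for the 5 lowest and 3 highest genes of each comparison against DMSO and the 3 lowest and 3 highest of the others. Genes of other lists were named among the 3 with the smallest p in each direction, and MCM9 and POLD4 with BEZ-235 after their values were seen. MCM7 and some genes of the comparisons between drugs were named after their values were seen. Alternatives were DESeq2 1.42.0, unrounded counts, scaling by relative log expression, no filter on low counts, a mean CPM of at least 1, a replicate block, only the groups compared, the correction above and each library left out.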

Additional observations from a re-analysis of the deposited data

Results flagged for a closer look

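For 15 of the 49 replication genes the SAHA effect differed with and without BEZ-235 by the interaction test of edgeR. Of the 49 genes 10 were negative and 5 positive, where 19.6% of all tested genes were negative and 18.9% positive, so the share of negative calls was near that of all genes and the share of positive calls below it. The change from adding SAHA to BEZ-235, less the change from adding it to DMSO, was negative for POLE2 (-1.15), DBF4 (-1.02), ORC3 (-0.86), PRIM1 (-0.79), ORC5 (-0.77), ORC4 (-0.77), RFC3 (-0.67), MCM4 (-0.62), PRIM2 (-0.42) and ORC2 (-0.40). It was positive for CDC6 (0.41), POLD2 (0.58), LIG1 (0.68), CDT1 (1.08) and POLD1 (1.62). After the GC and length correction POLE2, DBF4, ORC3, MCM4, CDC6 and POLD1 kept an adjusted p under 0.05 in the same direction. The calls of ORC2, CDC6 and PRIM2 were lost in some fits without a library, and the other 12 held in all 12 such fits. The libraries with both drugs are the 3 in which counts rose with GC content. The correction takes out any trend with GC content, whatever its source. An effect of the libraries and an effect of the drugs that follows GC content therefore cannot be told apart here.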

How the results depend on the processing

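The 46 calls with BEZ-235 against DMSO held under every alternative run. The number of higher genes there was 1 under the GC and length correction, with or without the replicate block. With SAHA against DMSO the number lower was 27 under the replicate block, 29 without a filter and 23 to 33 with a library left out. The number higher was 1 without a filter and 1 to 2 with a library left out. GMNN lay between -0.14 and 0.03 and PRIM1 between -0.14 and 0.06 with a library left out, and POLA1 was -0.01 under the GC correction with or without the block. With both drugs against DMSO ORC4 was 0.11 under both GC fits. Against BEZ-235, both drugs gave 8 higher genes under the GC correction and 6 with the block added, and CDT1 was -0.28 and -0.29. Against SAHA, both drugs gave 0 higher genes under relative log expression scaling, no filter, the replicate block, both GC fits, only the groups compared and DESeq2, and 0 to 1 with a library left out. CDT1 there was -0.31 and -0.32 under the GC fits. BEZ-235 against SAHA gave 1 higher gene without a filter and under the block, and 1 to 2 with a library left out. The negative interactions numbered 6 under the GC correction and 5 with the block, and ORC2 was 0.05 in both. The cause of these shifts was not tested.

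Samples with the same replicate number did not deviate together (r = -0.164 to 0.128 over 18 pairs, 1 above 0.1). Pairs from different groups with different numbers had r = -0.145 to 0.16. The replicate block was an alternative only, because the labels do not say what a replicate number shares. Few reads limit CLSPN with BEZ-235 and with both drugs, where 1 library held 6.55 counts.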
